A study of Homo sapiens with 9 samples.

Results

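A set of 9 complement genes was followed across MPZL3 knockdown in ovarian cancer cells: C1R, C1S, C3, C4BPA, C4BPB, C5, CFB, CFI and SERPING1. They were taken by symbol from a count table of 58676 genes, as complement components and soluble regulators that include C1S and C4BPB, which had some of the largest knockdown over control values in the table. Of the 9 genes, 7 passed the filter on low counts, as did 15975 genes of the table, while C4BPA and CFB did not. The set was put forward as complement genes raised in knockdown cells, and the data went against that description for 4 of the 9: C5 and SERPING1 were not raised, and C4BPA and CFB were barely counted. Because the knockdown against control values chose these genes, their values in that comparison are given as a description without a test.

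The cells, of the established line OVCA433, came from an ovarian serous adenocarcinoma. They were transduced with lentivirus carrying a control vector, shRNA#1-MPZL3 or shRNA#3-MPZL3 and were selected with puromycin, which all 3 groups share. There were 3 libraries in each group, marked replicate A, B and C, and 9 in all. The study describes the control vector as empty in one place and as scrambled in another, so whether control cells express a hairpin is uncertain. MPZL3 is a membrane protein predicted to act in cell adhesion, and the comparison asked which transcripts change when it is depleted. Per the study's methods the replicates are biological, and the sources used here do not say whether they were separate transductions.

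Complement is a cascade of plasma proteins that marks and lyses targets and recruits immune cells. In the classical pathway the serine proteases C1r and C1s, bound to C1q, cleave C4 and C2 and so form an enzyme that cleaves C3. C3 is the component on which all routes converge, C5 starts the terminal membrane attack complex, and factor B, the product of CFB, supplies the protease of the alternative pathway. Host cells are protected by soluble inhibitors: C1 inhibitor (SERPING1) blocks C1r and C1s, factor I (CFI) cleaves C3b and C4b, and C4b-binding protein, made of an alpha chain (C4BPA) and a beta chain (C4BPB), helps factor I to do so. The liver is the main source of most of these proteins, and epithelial, stromal and tumor cells also make several of them.

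Library totals ranged from 16850854 to 23890191 counts, and values per library are given as CPM, counts scaled to a library of 1e+06 with TMM factors. Calls required an adjusted p under 0.05 together with a log2 fold change of 1 or more in either direction. MPZL3 itself was at 15.6 to 21.9 CPM in the control libraries and 0.988 to 1.98 CPM in the 6 knockdown libraries. Of 10 markers of ovarian serous epithelium, 9 passed the filter, and WT1, 1 of the defining ones, was at no more than 3 counts in every library. The 3 replicate A libraries stood apart from the others of their groups in several of the complement genes, as described below, and in mitochondrial reads, which took 2.75% to 3.03% of their counts against 3.48% to 4.01% in replicates B and C.

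C1R and C1S encode the paired proteases that start the classical pathway, and both were higher in every knockdown library than in any control library. C1S (ENSG00000182326, chromosome 12, 6988259 to 7071032, plus strand, GRCh38) was nearly silent in control cells, at 7, 11 and 9 counts in replicates A, B and C. With hairpin #1 it was at 417, 1317 and 1043 counts, and with hairpin #3 at 338, 667 and 749. The CPM means of control, hairpin #1 and hairpin #3 cells were 0.439 ± 0.105, 43.7 ± 23.8 and 30.3 ± 9.10 (SD, n = 3), so the knockdown means differed from control by 99.7-fold and 69.1-fold. In bulk RNA, more cells expressing a gene and more RNA per cell cannot be told apart. C1R (ENSG00000159403, chromosome 12, 7080209 to 7092607, minus strand) was already expressed in control cells, at 3.39, 2.09 and 3.35 CPM. It was at 6.03, 16.8 and 11.1 CPM with hairpin #1 and at 8.42, 16.7 and 14.6 CPM with hairpin #3. The group means, 2.94 ± 0.738, 11.3 ± 5.38 and 13.2 ± 4.31 CPM (SD, n = 3), were 3.84-fold and 4.50-fold above control, and the lowest knockdown library, hairpin #1 replicate A, lay closest to control.

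The balance between the 2 proteases also differed between the groups. Per length, as TPM computed from the deposited counts and gene lengths, the ratio of C1S to C1R was 0.0878, 0.230 and 0.113 in the control libraries. It was 2.84, 3.50 and 3.54 with hairpin #1 and 2.08, 1.92 and 2.08 with hairpin #3. C1R transcripts outnumbered C1S transcripts in all 3 control libraries, and the order was turned in all 6 knockdown libraries. The ratio was higher in each hairpin #1 library than in each hairpin #3 library, with means of 3.29 and 2.03, and an exact two-sided permutation test gave p = 0.1, the smallest that 3 libraries against 3 can give. The libraries were non-directional, and 672 of the 5885 exon bases of C1R (11.4%) are shared with C1RL and 229 exon bases of C1S with EMG1, so part of the reads of these neighbours cannot be assigned with certainty.

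C4BPB, the beta chain of C4b-binding protein, was the other gene that was nearly silent in control cells and clearly expressed in knockdown cells. C4BPB (ENSG00000123843, chromosome 1, 207088842 to 207099993, plus strand) had 12, 7 and 1 counts in control replicates A, B and C. It had 496, 493 and 937 counts with hairpin #1 and 284, 213 and 305 with hairpin #3. The CPM means of the 3 groups were 0.326 ± 0.267, 29.5 ± 9.31 and 14.2 ± 2.51 (SD, n = 3), and no knockdown library came near the control range. The pooled log2 fold change of 6.05 (SE 0.596) rested on few control counts: it was 6.76 without control replicate A and 5.53 without control replicate C. C4BPA (ENSG00000123838, chromosome 1, 207104262 to 207144972, plus strand), which encodes the alpha chain and is the next gene on the same strand, had 1 count in all 9 libraries together, in hairpin #1 replicate C. The alpha chain transcript was not detectable at this depth in 8 of the 9 libraries, where 0 counts allow up to 3.

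The DNA just upstream of these neighbours is shown because the 2 genes lie side by side and only C4BPB was counted above the floor of 3 counts. Both stretches are read on the plus strand from RefSeq (GRCh38.p14) and contain no annotated exon. The C4BPB stretch, chr1:207088610-207088841, ends 19 bases before the RefSeq start, and the C4BPA stretch, chr1:207103983-207104232, ends 1 base before it. They are printed in lower case throughout, since none of the motifs searched below was found in either.
C4BPB: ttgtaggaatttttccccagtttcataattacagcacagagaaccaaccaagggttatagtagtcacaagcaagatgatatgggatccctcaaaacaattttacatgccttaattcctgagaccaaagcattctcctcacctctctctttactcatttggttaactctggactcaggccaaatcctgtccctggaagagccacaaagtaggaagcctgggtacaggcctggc
C4BPA: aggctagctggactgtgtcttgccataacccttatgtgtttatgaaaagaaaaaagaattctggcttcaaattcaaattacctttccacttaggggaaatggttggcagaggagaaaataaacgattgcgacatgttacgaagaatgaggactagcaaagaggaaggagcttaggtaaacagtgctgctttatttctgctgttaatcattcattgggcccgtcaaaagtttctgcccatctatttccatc

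C3 (ENSG00000125730, chromosome 19, 6677704 to 6730562, minus strand), the central component, was the most abundant of the 9 genes per length in every group. It was at 48.9, 149.4 and 155.3 CPM in control replicates A, B and C. With hairpin #1 it was at 335.9, 1394 and 656.9 CPM, and with hairpin #3 at 331.4, 754.5 and 770.1 CPM. The groups did not overlap, and the means of 117.9 ± 59.8, 795.5 ± 542.4 and 618.7 ± 248.9 CPM (SD, n = 3) lay 6.75-fold and 5.25-fold above control. The spread within a group was wide, since replicate A was the lowest in all 3 groups and hairpin #1 replicate B was far above its partners. In that library C3 took 0.138% of all counts and ranked 175 by TPM, against 0.00497% and rank 6429 in control replicate A.

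C5 (ENSG00000106804, chromosome 9, 120952335 to 121050276, minus strand), a paralog of C3 and the entry to the terminal pathway, did not follow it. It was at 4.12, 4.13 and 3.35 CPM in control, 3.04, 3.97 and 3.69 CPM with hairpin #1 and 3.41, 5.27 and 3.82 CPM with hairpin #3. The groups overlapped, and the pooled log2 fold change was -0.00054 with a 95% interval of -0.43 to 0.42. The ratio of C3 to C5 by TPM was 9.31 to 36.4 in control libraries, 86.8 to 275.5 with hairpin #1 and 76.2 to 158.1 with hairpin #3. CFB (ENSG00000243649, chromosome 6, 31945650 to 31952084, plus strand), which encodes the alternative pathway protease, had 2, 4 and 9 counts in control, 6, 6 and 4 with hairpin #1 and 2, 3 and 2 with hairpin #3. The control counts overlapped those of both hairpins, the hairpin #1 libraries lay above the hairpin #3 libraries at 4 to 6 against 2 to 3 counts, and the gene was too low to test. Of its exon bases, 2249 of 4997 are shared with the readthrough gene AL645922.1.

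Of the soluble inhibitors, SERPING1 was expressed in all groups and CFI was counted mainly with hairpin #3. SERPING1 (ENSG00000149131, chromosome 11, 57597387 to 57614853, plus strand), the inhibitor of the 2 proteases described above, was at 4.99, 10.8 and 11.9 CPM in control. It was at 4.63, 6.16 and 7.25 CPM with hairpin #1 and at 3.30, 6.58 and 8.06 CPM with hairpin #3. Control replicates B and C lay above every knockdown library, while control replicate A lay among them. Within each letter the control library was above both knockdown libraries, 3 of 3, though the letters were not shown to pair the libraries. The pooled log2 fold change was -0.62 with a 95% interval of -1.26 to 0.032, and -0.58 with the letter as a block in the fit. Per length, SERPING1 transcripts exceeded C1S transcripts in control cells, at 9.46 ± 3.47 against 0.253 ± 0.0527 TPM, and the order was turned with hairpin #1, at 6.27 ± 1.14 against 25.4 ± 13.8 TPM, and with hairpin #3, at 6.28 ± 2.38 against 17.8 ± 4.95 TPM (SD, n = 3).

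CFI (ENSG00000205403, chromosome 4, 109740694 to 109802179, minus strand) had 2, 0 and 1 counts in control, 2, 4 and 10 with hairpin #1 and 21, 15 and 18 with hairpin #3. The hairpin #3 libraries were above all others, and hairpin #1 replicate A lay within the control range. The gene passed the filter on low counts only through the hairpin #3 group, so that its difference is no independent support. Against a floor of 3 counts in each control library, CFI was at least 6.59-fold higher with hairpin #3 and at least 1.66-fold higher with hairpin #1. These bounds cover counting error only, because reads amplified without molecular identifiers are not independent molecules. Of the CFI exon bases, 1562 of 4875 (32.0%) are shared with AC126283.2 on the same strand.

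**Figure D1:**
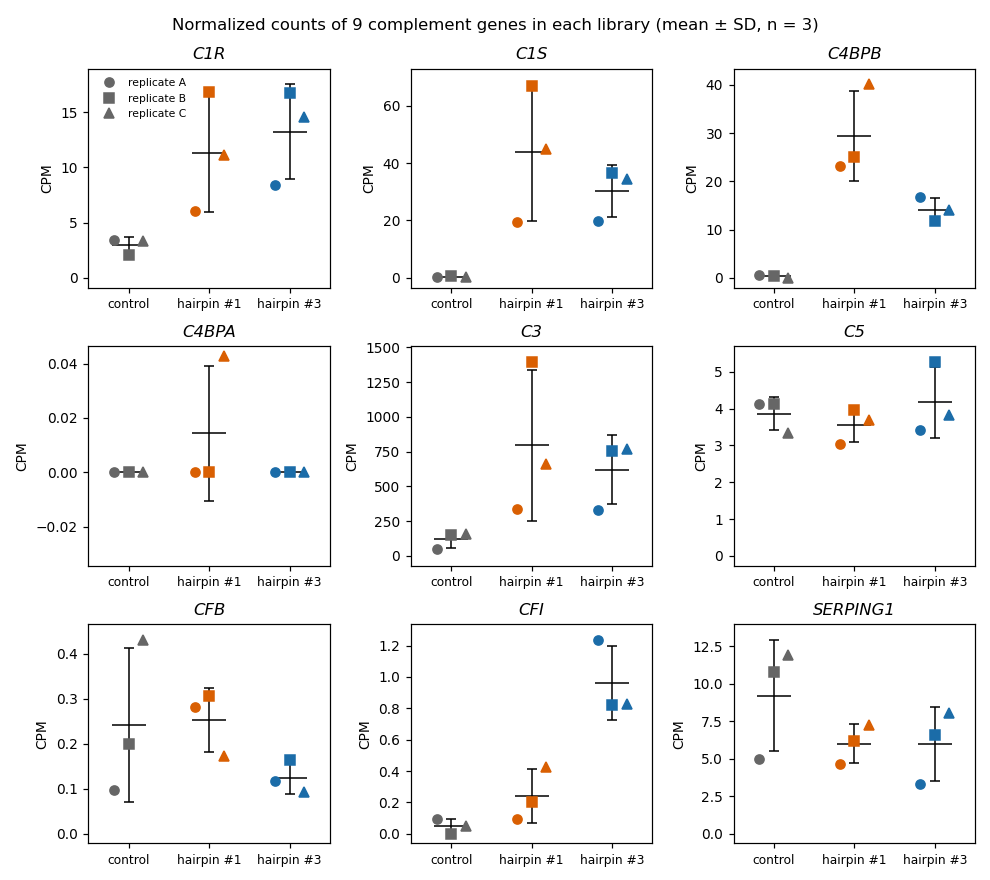
CPM of the 9 complement genes (y axis, linear, a separate scale in each panel) in control, hairpin #1 and hairpin #3 cells; circles, squares and triangles are replicates A, B and C, and lines show the mean ± SD of 3 libraries. C1R, C1S, C4BPB and C3 are higher in all 6 knockdown libraries than in all 3 control libraries, whereas C5 overlaps between groups, CFB in control overlaps both hairpins, 1 library has the only C4BPA count, and SERPING1 is highest in control replicates B and C.

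Counted over the set, 4 of the 9 genes were above all control libraries in all 6 knockdown libraries (C1R, C1S, C3 and C4BPB), a pattern that 15.5% of all tested genes shared. Nothing is read from the difference, because the genes were chosen on this contrast. The pooled log2 fold changes were 2.06 (SE 0.344) for C1R, 6.38 (SE 0.546) for C1S, 2.58 (SE 0.516) for C3 and 6.05 (SE 0.596) for C4BPB. With all 3 replicate A libraries left out they were 2.45, 6.54, 2.56 and 6.83.

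Ranked per length in control cells, the mean levels were 52.2 ± 25.1 TPM for C3, 9.46 ± 3.47 for SERPING1, 2.23 ± 0.337 for C5 and 1.95 ± 0.533 for C1R (SD, n = 3). C4BPB (0.389 ± 0.332 TPM), C1S, CFB (0.178 ± 0.120 TPM) and CFI (0.0479 ± 0.0497 TPM) followed, with C4BPA at 0. C5 and C1R did not differ beyond their spread, nor did C4BPB, C1S and CFB. With hairpin #1 the order became C3 (360.2 ± 248.4 TPM), C4BPB (34.3 ± 9.37), C1S (25.4 ± 13.8), C1R (7.504 ± 3.57), SERPING1 (6.27 ± 1.14) and C5 (2.06 ± 0.247). With hairpin #3 it was C3 (281.2 ± 106.9 TPM), C1S (17.8 ± 4.95), C4BPB (16.8 ± 3.44), C1R (8.86 ± 2.73), SERPING1 (6.28 ± 2.38) and C5 (2.43 ± 0.556). In both knockdown groups C4BPB and C1S lay within each other's spread, and the spreads of C1R and SERPING1 overlapped.

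Hairpin #3 and hairpin #1 were compared next, a contrast that did not choose the genes. C4BPB passed both thresholds, as did 3.93% of all tested genes in either direction. C4BPB was lower with hairpin #3, with a log2 difference of -1.06 (SE 0.248, 95% interval -1.60 to -0.53, Benjamini-Hochberg adjusted p = 0.0137 in edgeR's quasi-likelihood test). Its 3 hairpin #3 libraries, at 16.7, 11.7 and 14.04 CPM, all lay below the 3 hairpin #1 libraries, at 23.2, 25.1 and 40.2 CPM. The call was lost without hairpin #1 replicate C (log2 difference -0.77, edgeR adjusted p = 0.0765) and without hairpin #3 replicate B (-0.94, edgeR adjusted p = 0.0810), and the difference was -1.34 without all 3 replicate A libraries.

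CFI had 54 counts with hairpin #3 against 16 with hairpin #1, a log2 difference of 1.93 (SE 0.531). As the gene entered the fit only through its hairpin #3 counts, the difference is given without a test. It ranged from 1.55 to 2.66 with 1 library left out and was 1.34 without all 3 replicate A libraries. The surroundings of CFI moved the same way to a smaller extent: the median log2 difference of the 50 nearest expressed genes was 0.38, with 98% of them higher with hairpin #3, and that of chromosome 4 was 0.40. Their part in the CFI difference was not tested. For C4BPB the median of the 50 nearest genes was -0.065, with 40% of them higher with hairpin #3. The complement regulator genes CD55 and CD46, further along chromosome 1, were at -0.58 and -0.74. Their part in the C4BPB difference was not tested.

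C1R, C1S, C3, C5 and SERPING1 gave no detectable difference between hairpins. The log2 differences and 95% intervals were 0.23 (-0.46 to 0.93) for C1R, -0.52 (-1.24 to 0.19) for C1S, -0.36 (-1.41 to 0.68) for C3, 0.23 (-0.24 to 0.69) for C5 and 0.0025 (-0.73 to 0.74) for SERPING1. These intervals leave room for differences of over 1 on the log2 scale in C1S and C3. C1S was lower with hairpin #3 at an adjusted p under 0.05 when the replicate A libraries were left out (-0.65, edgeR adjusted p = 0.00429) or when the replicate letter was a block in the fit (-0.43, edgeR adjusted p = 0.0248), in both cases short of the fold threshold.

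**Figure D2:**
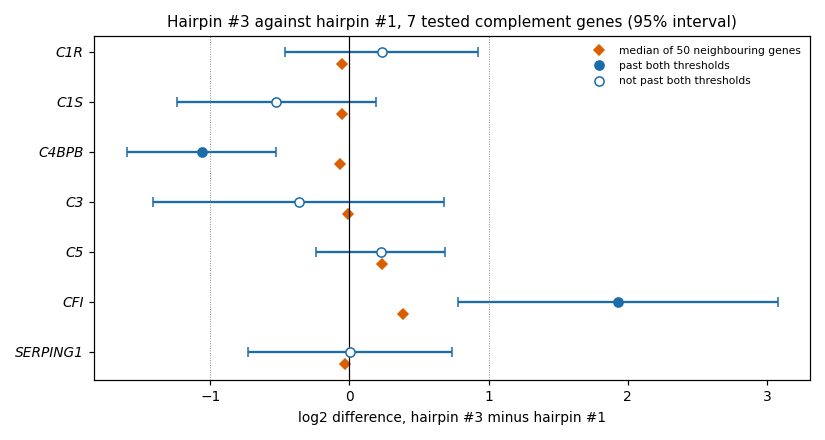
Log2 difference between hairpin #3 and hairpin #1 (x axis, circles with 95% intervals) for the 7 complement genes in the fit; filled circles passed both thresholds, CFI only after entering the fit through its hairpin #3 counts, dotted lines mark a log2 difference of 1 in either direction, and diamonds give the median of the 50 nearest expressed genes on the chromosome. C4BPB at -1.06 lies below the median of its neighbours at -0.065, and CFI at 1.93 lies above a neighbour median of 0.38. The other 5 intervals cross 0.

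Replicate A differed from replicates B and C within the groups, a second contrast that did not choose the genes. In a fit that adjusted for group, C3 was lower in replicate A by a log2 difference of -1.47 (SE 0.154, Benjamini-Hochberg adjusted p = 6.63e-05 in edgeR's quasi-likelihood test) and C1S by -1.15 (SE 0.143, adjusted p = 0.000184 by the same test). C3 in replicate A was at 32.1% of the mean of B and C in control cells, 32.8% with hairpin #1 and 43.5% with hairpin #3. C1S was at 69.4%, 34.9% and 56.0%, on few counts in control cells. SERPING1 (-0.94, SE 0.149, edgeR adjusted p = 0.000850) and C1R (-0.71, SE 0.226, edgeR adjusted p = 0.0373) were lower without reaching the fold threshold.

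C4BPB (0.0016, 95% interval -0.41 to 0.41), C5 (-0.18, -0.55 to 0.18) and CFI (0.16, -0.99 to 1.31) gave no detectable difference by replicate. Both thresholds were passed by 2 of the 7 genes in the fit, where 0.858% of all tested genes were called lower in replicate A. Without the fold threshold 4 of the 7 were lower, against 10.4% of all tested genes. Replicate A was the lowest library in each of the 3 groups for C1S, C3 and SERPING1, 3 of the 7, which was so for 15.4% of all tested genes. The difference of C1R was lost without control replicate C, hairpin #1 replicate A or B, or any of the hairpin #3 libraries, with edgeR adjusted p from 0.0678 to 0.339, and in DESeq2 (adjusted p = 0.300). C3 passed both thresholds whichever of the 9 libraries was left out, with log2 differences of -1.60 to -1.27, whereas C1S fell short of the fold threshold without hairpin #1 replicate A (-0.83) or replicate B (-0.98).

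The same contrast was read in the genes known to induce complement transcription. Interleukin 1 alpha (IL1A, -1.002), interleukin 1 beta (IL1B, -1.54) and interleukin 6 (IL6, -2.04) were lower in replicate A past both thresholds, with edgeR adjusted p of 3.64e-05, 6.89e-05 and 0.000312. NFKBIZ, which encodes an NF-kB cofactor, was lower by a log2 difference of -0.92 (edgeR adjusted p = 0.000111). Of the 23 inducer genes in the fit, 11 were lower at an adjusted p under 0.05 (10.4% of all tested genes) and 3 of these passed the fold threshold (0.858%). The part of these genes, and of the mitochondrial share that set replicate A apart, in the levels of C3 and C1S was not tested.

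**Figure D3:**
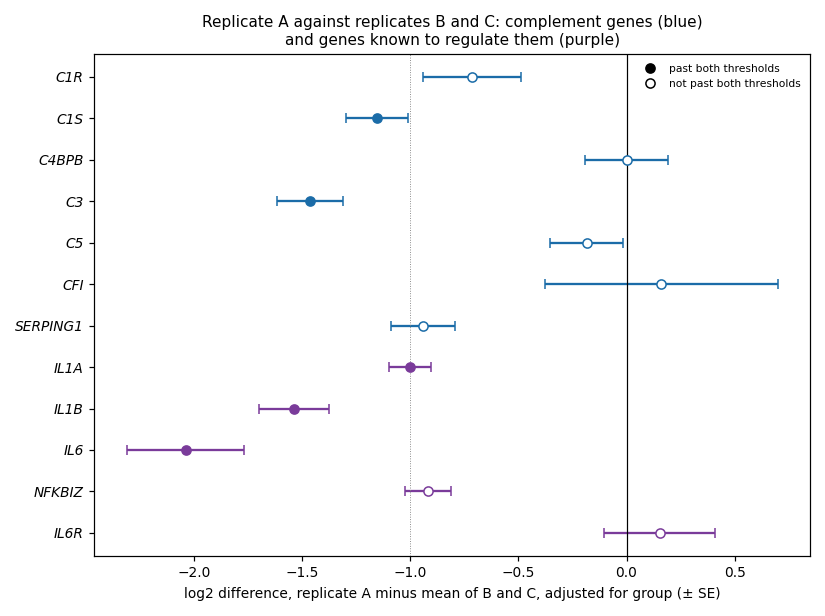
Log2 difference of replicate A from the mean of replicates B and C, adjusted for group (x axis, estimate ± SE from a fit to 9 libraries), for the 7 complement genes in the fit (blue) and 5 genes known to regulate them (purple); filled circles passed both thresholds and the dotted line marks -1. C3 at -1.47 and C1S at -1.15 lie with IL1A, IL1B and IL6 to the left of the line, while C4BPB, C5, CFI and IL6R lie near 0.

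The genes around C1R, C1S and C4BPB were examined to see whether whole neighbourhoods moved. Within 250 kb of C1R and C1S, 28 other genes were in the fit, and 25 of them were not called in the pooled comparison. Of all tested genes, 14.7% were called in either direction. The nearest protein-coding genes, EMG1 (log2 fold change -0.31) and LPCAT3 (-0.36) on the C1S side and C1RL (0.20) and RBP5 (0.61) on the C1R side, were not called either. C1RL encodes a protease related to C1r. The calls were ACSM4, which was higher, and PTPN6 (-1.05) and the lincRNA U47924.27, which were lower. These 3 were named after their values were seen. ACSM4 was at 0 CPM in control and U47924.27 at 0 CPM in knockdown libraries. Both entered the fit only through the libraries that counted them, so their calls are no independent support.

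Around C4BPB and C4BPA only 5 other genes were in the fit. PFKFB2 (0.10) and YOD1 (0.23) on the left were not called. CD55, the nearest on the right at 176536 bases and itself a complement regulator, was higher (2.20, SE 0.211, Benjamini-Hochberg adjusted p = 8.16e-06 in edgeR's quasi-likelihood test). C1orf116, named after its value was seen, was lower (-4.87).

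**Figure D4:**
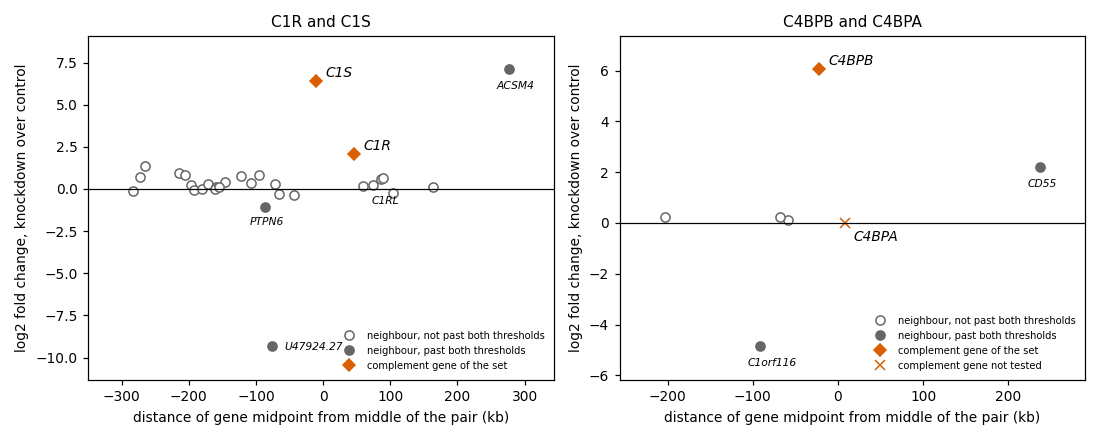
Log2 fold change of pooled knockdown over control (y axis) against the distance of each gene's midpoint from the middle of the gene pair in kb (x axis), for genes within 250 kb of C1R and C1S (left) and of C4BPB and C4BPA (right). C1S at 6.38 and C4BPB at 6.05 stand above most neighbours near 0; filled points passed both thresholds, and the cross on the zero line marks only the position of C4BPA, which was not tested.

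Promoter sequence was available for 6 of the 9 genes in RefSeq (GRCh38.p14), as 10 windows of the 250 bases before a start site. The others were C1S, C3 and SERPING1. Motifs of factors known to drive acute phase and interferon responses were searched on both strands, and each is given with the share of all 35116 windows that hold it. They were the interferon element GAAANNGAAA (3.02%), the STAT site TTCNNNGAA (6.57%), the C/EBP site TTGCNNAA (9.05%), the AP-1 site TGANTCA (6.57%), the NF-kB site (5.21%) and the TATA box TATAAA (10.7%).

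CFB held the most, although it was barely counted: an interferon element match on the minus strand, TTTCTGTTTC, 140 bases before the start, the STAT match TTCCGGGAA at 92 bases and a TATA box at 30 bases. C1R held the STAT match TTCCTGGAA at 86 bases and a C/EBP match at 167 bases before 1 of its starts, and a C/EBP match on the minus strand at 106 bases before the other. C4BPB held the STAT match TTCCCAGAA at 43 bases before the third of its starts. All of these C1R, CFB and C4BPB matches lay within annotated exons of longer transcripts or of an overlapping gene. These STAT matches read the pattern on both strands. None of the motifs was found in the windows of C4BPA, C5 and CFI, nor before the other starts of C4BPB. Matches are letters in a window and not evidence of binding.

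The genes whose pattern was most like that of C1S and C4BPB over the 6 knockdown libraries were found by the root mean square distance of the log2 change from the control mean, among the 9692 genes that averaged 10 CPM or more. Nearest to C1S were SLIT3 (distance 0.43), FBN1 (0.52) and TMEM178B (0.54), against a median distance of 5.24 over all genes. SLIT3, a secreted guidance protein, averaged 3.03 ± 1.15, 176.3 ± 45.5 and 90.7 ± 12.3 CPM (SD, n = 3) in control, hairpin #1 and hairpin #3 cells. FBN1, the microfibril protein fibrillin, went from 4.19 ± 0.758 to 153.5 ± 42.2 and 146.7 ± 9.52 CPM. Nearest to C4BPB were SHISA2 (0.48), NNMT (0.48) and DOCK10 (0.51), against a median of 4.74. All 3 had lower means with hairpin #3 than with hairpin #1, as in DOCK10 at 0.326 ± 0.204, 24.01 ± 5.27 and 10.9 ± 0.897 CPM. They were picked for likeness to C4BPB over these same libraries, so the shared order is no separate observation. The likeness is a description over 6 libraries that share the control mean.

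The rest of the complement system was read from a list of 47 further genes, of which 14 passed the filter. In the pooled comparison 5 of the 14 were called in edgeR's quasi-likelihood test, all of them higher, where 7.26% of all tested genes were called higher and 14.7% in either direction, and the median of the 14 log2 fold changes was 0.61 against 0.0045 over all tested genes. Of the 5, C4A, C3AR1 and ITGAX entered the fit only through knockdown libraries. Their calls and their part in the median are therefore no independent support. With a filter of at least 1 CPM on average, 2 other complement genes were called. Of the 47 genes, 24 were at no more than 3 counts in each of the 9 libraries. Among them were all 3 chains of C1q, the recognition unit that C1r and C1s attach to (C1QA, C1QB, C1QC), the mannose-binding lectin gene MBL2 with its protease gene MASP1, and C6, C7, C8A, C8B and C9 of the terminal pathway.

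CD55, which encodes decay-accelerating factor, a membrane protein that speeds the decay of the enzymes that cleave C3, rose from 25.1 ± 2.85 CPM to 138.0 ± 27.3 CPM (hairpin #1) and 92.6 ± 1.35 CPM (hairpin #3; SD, n = 3). It was lower with hairpin #3 than with hairpin #1 (log2 difference -0.58, edgeR adjusted p = 0.0124), short of the fold threshold. ITGB2, the beta chain of the leukocyte complement receptors, rose from 2.91 ± 0.278 to 8.93 ± 0.541 and 8.33 ± 1.97 CPM (log2 fold change 1.57, SE 0.178, edgeR adjusted p = 3.18e-05). The other calls fell outside the rule for named genes and are named after their values were seen: C4A, at 0.257, 0.890 and 0.589 CPM in the 3 groups not called with hairpin #3 alone (edgeR adjusted p = 0.122) and with a near-identical copy in C4B, and the receptor genes C3AR1 and ITGAX, which were at the floor in control and at least 5.10-fold and 6.95-fold higher in knockdown cells.

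Of the membrane inhibitors other than CD55, CD46 had a log2 fold change of -0.00012 and CD59 of -0.077 (edgeR adjusted p of 0.9998 and 0.764). The pooled value of CD46 joined hairpins on opposite sides of control, at 400.0 ± 13.4, 500.0 ± 127.3 and 299.8 ± 25.6 CPM in control, hairpin #1 and hairpin #3 cells (SD, n = 3). CD46 had log2 fold changes of 0.32 with hairpin #1 (edgeR adjusted p = 0.1095) and -0.42 with hairpin #3 (edgeR adjusted p = 0.0465). Hairpin #3 differed from hairpin #1 by -0.74 (edgeR adjusted p = 0.00625), short of the fold threshold. CD46 and CD59 were also named after their values were seen.

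**Figure D5:**
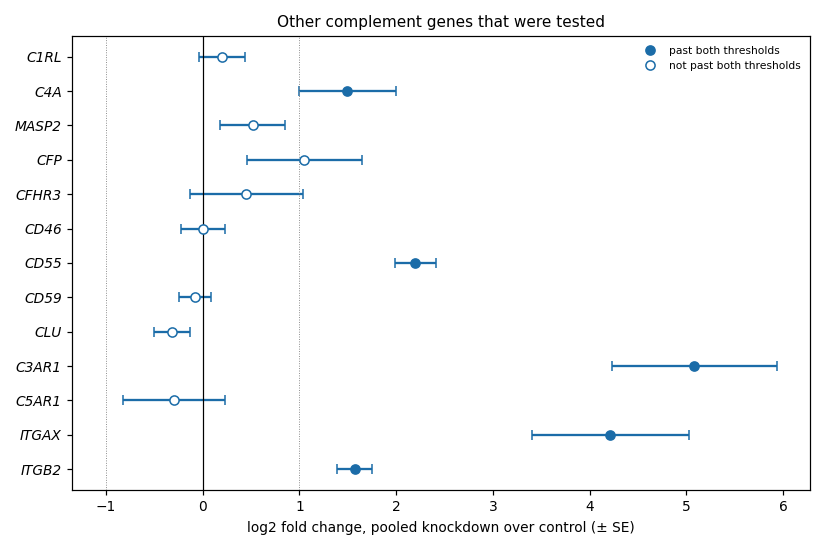
Log2 fold change of pooled knockdown over control (x axis, ± SE) for other complement genes that passed the filter on low counts; filled circles passed both thresholds and dotted lines mark a log2 fold change of 1 in either direction. CD55 (2.20), ITGB2 (1.57), C4A, C3AR1 and ITGAX passed, the last pair with control libraries at the floor, so that their fitted values are no bound, and all 5 lie to the right of the upper line. C4A, C3AR1 and ITGAX entered the fit only through knockdown libraries.

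Acute phase genes, whose products are made with complement proteins by the inflamed liver, did not move in 1 direction. Of 22 genes, 7 passed the filter, 3 were higher and 3 were lower in the pooled comparison (all tested genes: 7.26% higher, 14.7% in either direction), with a median log2 fold change of 0.015, and 11 stayed at 3 counts or fewer in each library. The copper carrier ceruloplasmin (CP) rose from 0.261 ± 0.129 CPM to 11.9 ± 5.76 and 22.8 ± 4.24 CPM in the 2 knockdown groups (SD, n = 3; log2 fold change 6.03, SE 0.575, edgeR adjusted p = 7.69e-06). The pentraxin PTX3, which binds C1q, rose by 1.72 on the log2 scale (SE 0.289, edgeR adjusted p = 0.000656), and ITIH3 was at least 6.79-fold higher over a control group at 0 counts. The siderophore-binding protein gene LCN2 fell from 221.9 ± 124.7 CPM to 0.413 ± 0.358 and 0.786 ± 0.0691, and the serum amyloid gene SAA2 from 1.93 ± 0.960 to 0.333 ± 0.197 and 0.427 ± 0.442 CPM. CP and ITIH3 passed the filter only through knockdown libraries and SAA2 only with its control libraries, so their calls are no independent support.

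Among 29 genes of cytokines, receptors and transcription factors known to control complement transcription, 23 passed the filter, 4 were higher and 2 were lower, beside 7.26% of all tested genes higher and 14.7% called in either direction. The median of the list was 0.34 on the log2 scale. IL1B rose from 9.86 ± 5.68 CPM (SD, n = 3) to 129.7 ± 70.7 and 162.7 ± 125.8, and IL1A from 7.58 ± 2.18 to 65.9 ± 23.8 and 72.1 ± 34.6 CPM (log2 fold changes 3.89 and 3.19, edgeR adjusted p of 0.000531 and 3.76e-05). IL6 was at 1.75 ± 0.568, 20.8 ± 14.98 and 4.97 ± 3.29 CPM (pooled log2 fold change 2.88, SE 0.874, edgeR adjusted p = 0.0246). Each hairpin on its own gave IL6 a log2 fold change of 3.56 with hairpin #1 (edgeR adjusted p = 0.000653) and 1.53 with hairpin #3 (edgeR adjusted p = 0.1003), so that only the first was called. NFKBIZ rose by 1.65 on the log2 scale. The interleukin 6 receptor gene IL6R fell by 1.56 on the log2 scale, and IRF1, named after its value was seen, fell by 1.25, with -0.89 for hairpin #1 under the fold threshold and -1.73 for hairpin #3. Interferon genes IFNG and IFNB1 were at no more than 3 counts in every library. The part of these genes in the complement rises was not tested.

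Markers of other cells that make complement were read beside the set. Of 10 hepatocyte markers, 6 were at no more than 3 counts in each of the 9 libraries, ALB and TTR among them. The 2 in the fit, APOA1 and APOC3, were higher, but both entered it only through knockdown libraries and are no independent support. The summed level of the list was 0 to 0.339 CPM in control and 1.18 to 8.92 CPM in knockdown libraries. Of 10 macrophage markers, 5 were at no more than 3 counts in each library, CD68 and CD163 among them. Their list summed to 1.29 to 2.62 CPM in control and 0.506 to 1.68 CPM in knockdown libraries. Of 10 fibroblast markers, all 6 in the fit were higher, though POSTN was called only with hairpin #3 and LUM only with hairpin #1. PDGFRB, COL1A2, COL3A1 and POSTN passed the filter only with their knockdown libraries, so their calls are no independent support. FAP, not in the fit, had means of 0.550, 0.352 and 0.129 CPM in control, hairpin #1 and hairpin #3 cells. The defining marker DCN stayed at no more than 3 counts. The sum of the fibroblast list was 19.0 to 23.1 CPM in control and 110.1 to 875.5 CPM in knockdown libraries. COL1A1 made up most of it, at 16.7 to 20.1 CPM in control and 94.9 to 846.6 CPM in knockdown libraries. Of 8 mesothelial markers, 1 was higher and 1 was lower in the pooled comparison among the 4 in the fit, with sums of 132.7 to 165.5 and 135.3 to 224.3 CPM. With hairpin #3 alone 3 were called higher and 1 lower. Unlike the fibroblast markers, ovarian serous markers mostly fell, with 6 of 9 in the fit lower and 1 higher. Their sums were 11420 to 14250 CPM in control and 5273 to 6847 CPM in knockdown libraries. Keratins KRT7, KRT8, KRT18 and KRT19, with control means of 1550 to 4816 CPM, weighed most in these sums. Named after their values were seen, CDH1 fell from 275.3 CPM to 0.112 and 0.148 CPM with hairpins #1 and #3, and EPCAM from 402.6 to 5.48 and 8.93 CPM. PAX8, the 1 called higher, rose from 96.99 to 199.9 and 207.3 CPM. SOX17, also named after its value was seen, rose from 14.3 to 28.2 and 27.6 CPM, short of the fold threshold. MUC16 and CDH1 passed the filter only with their control libraries, so their calls are no independent support. The part of these shifts in the complement values was not tested.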

How the data were processed

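RNA was measured by poly(A) sequencing of non-directional libraries from OVCA433 cells, 3 libraries in each of 3 groups. The authors deposited raw counts of reads per gene, not normalized or filtered, with a gene length that was used here for TPM. Per the submitters' processing notes, HISAT2 2.0.5, featureCounts 1.5.0-p3 and hg38 were used. All 58676 identifiers were in GENCODE 29, and 95.24% had the same position, so positions are on GRCh38.

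Groups and replicate letters came from the sample labels, and no column of the table was left unassigned. Totals of 16850854 to 23890191 counts set the precision, and floors (3 counts) cover counting error only. The intervals of log2 fold changes and differences come from the edgeR fits and include the spread between libraries. The default filterByExpr filter, with a minimum count of 10 and a total of 15, left 15975 genes with 99.889% of the counts. Differences were tested with edgeR 4.0.16 in R 4.3.3 (TMM, glmQLFit and glmQLFTest), with Benjamini-Hochberg adjustment over these genes, called at an adjusted p under 0.05 and a log2 fold change of 1 or more in either direction. The pooled comparison set 6 knockdown libraries against 3 control. The hairpins were compared in a 3-group fit, and replicate A with B and C in a fit with group and letter. The fits were tested on simulated data. The study calls the replicates biological, but nothing in the labels names separate cultures, so p-values measure the spread between these libraries.

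The 9 genes and all lists were chosen with earlier results of these data known. Named beside them were MPZL3, other complement genes called in the pooled comparison with a mean of at least 1 CPM, the 5 acute phase and 5 inducer genes called with the largest change, the nearest 2 protein-coding neighbours on each side of each pair, and the 3 genes nearest in pattern to C1S and C4BPB. Alternatives were other low-count filters, DESeq2 size factors, library totals, DESeq2 1.42.0, a block for the letter, leaving out each library, an adjusted p under 0.01, no fold threshold and a 3-group model. Leaving out all 3 replicate A libraries was chosen after seeing the data. A gene of the complement list is not reported here by itself.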

Additional observations from a re-analysis of the deposited data

Results flagged for a closer look

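C4BPB differed between the hairpins past both thresholds, by -1.06 on the log2 scale (edgeR adjusted p = 0.0137). CFI differed by 1.93 on 16 against 54 counts, and since it passed the filter on low counts only through its hairpin #3 libraries no test is read from it. Among the genes named beside them, CD55 (log2 difference -0.58, edgeR adjusted p = 0.0124), ceruloplasmin (CP, 0.95, edgeR adjusted p = 0.0397), IL6 (-2.04, edgeR adjusted p = 0.0352) and IL6R (1.17, edgeR adjusted p = 0.0315) also differed between hairpin #3 and hairpin #1. MPZL3 had a library far from the others: hairpin #3 replicate B was at 0.988 CPM, and the nearest of the other 5 knockdown libraries was at 1.80 CPM. It was the only such gene of 20 checked over the 6 knockdown libraries, where chance flags about 1 in 20.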

How the results depend on the processing

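The 4 members above all control libraries kept their direction under every alternative run. They were chosen on this contrast and did not overlap between control and knockdown, so the kept direction is no independent support. C1S and C4BPB also passed the filter on low counts only through knockdown libraries. By replicate, C3 and C1S stayed lower in replicate A. For the remainder the cause of a change was not tested unless the alternative itself removes genes, libraries or a threshold. With a mean of at least 1 CPM the counts were 2 other complement genes, 1 of the 9 genes between hairpins and 110 genes by replicate (166 before). DESeq2 called 84 genes by replicate, and an adjusted p under 0.01 left 83 by replicate and 0 of the 9 genes between hairpins. Without the fold threshold the counts were 5269 genes pooled (2342 before), 6032 with hairpin #1 (2605), 5536 with hairpin #3 (2443), 1857 between hairpins (628) and 3347 by replicate, with 11 inducer genes and 4 of the 9 genes by replicate. Leaving out 1 library gave 0 to 2 of the 9 genes between hairpins (0 without hairpin #3 replicate B), 1 to 3 by replicate and 103 to 174 genes by replicate, the lowest without hairpin #1 replicate A. Leaving out all 3 replicate A libraries left 1 of the 9 genes between hairpins. All counts of the 9 genes between hairpins include CFI where it was called.

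Differences near 0 changed sign. By replicate, C4BPB was at -0.0087 with no filter on low counts, -0.0033 with a mean of at least 1 CPM and -0.33 to 0.48 with 1 library left out, and CFI at -0.69 to 0.72. Between hairpins, SERPING1 was at -0.0039 in DESeq2 and -0.27 to 0.29 with 1 library left out, C1R at -0.073 to 0.63 and C3 at -0.73 to 0.32. Between hairpins C1S (-0.52, edgeR adjusted p = 0.00314) and C3 (-0.36, edgeR adjusted p = 0.0311) had an adjusted p under 0.05 with no filter on low counts.

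In a fit with a replicate block for the letters, the counts were 2306 genes pooled and 754 between hairpins, with the same 2 of the 9 genes between hairpins. SERPING1 was then at -0.049 between hairpins and -0.58 in the pooled comparison, and C1S at -0.43 passed an adjusted p of 0.05. The letters were not taken to pair the libraries, because same-letter correlations of the deviations from the group means were 0.306 to 0.361 for A and 0.155 to 0.242 for C but 0.0373 to 0.0939 for B, against -0.322 to 0.132 for different letters. Depth limits C4BPA, CFB, CFI and the control levels of C1S and C4BPB.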
